A study of Mus musculus with 6 samples.

Results

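The genes of polyamine synthesis and turnover were examined in the gastrocnemius (GAS) muscles of mice that lack Kvβ2, a cytosolic subunit of voltage-gated potassium channels encoded by *Kcnab2*. They were 10 of the 37979 genes in the table, found by their symbols. The synthesis enzymes were *Odc1*, *Amd1*, *Srm* and *Sms*, the catabolic enzymes *Sat1*, *Smox* and *Paox*, and the regulators of ornithine decarboxylase *Oaz1*, *Oaz2* and *Azin1*. The set was chosen by the value of *Srm*, which was selected on its higher level in KO muscle, and the other 9 genes were added for their place in the pathway. The values of *Srm* between the genotypes are therefore given as a description, with no test, and the counts of tested differences cover the 9 others.

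Both groups were untreated male mice of 20 weeks, 3 WT and 3 Kvβ2 KO (Kvβ2-/-), bred from parents that each carried 1 null allele. The null allele is carried by every cell of the body from birth, so the values of the GAS muscles do not separate an effect in myofibers from one in other tissues. RNA was purified from whole muscle and prepared with a stranded mRNA kit, with 1 library per mouse, and the libraries of each genotype carry the numbers 1, 7 and 8. Expression was given as FPKM, the fragments of a gene divided by the length of its transcript and by the depth of the library, which allows levels to be compared between genes of different length. Values of 3 mice are given in the order of replicates 1, 7 and 8.

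Putrescine, spermidine and spermine are small positively charged amines found in every animal cell. Ornithine decarboxylase (*Odc1*) makes putrescine from ornithine, and S-adenosylmethionine decarboxylase (*Amd1*) supplies the aminopropyl group that spermidine synthase (*Srm*) and spermine synthase (*Sms*) add in turn. Polyamines bind RNA, spermidine is the source of the hypusine residue of the translation factor eIF5A, and intracellular polyamines plug strong inward rectifier potassium channels of muscle. The cell keeps its polyamines within narrow limits through antizymes, which bind ornithine decarboxylase and send it to the proteasome.

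The targeted gene *Kcnab2* (ENSMUSG00000028931, chromosome 4, GRCm38) was at 0.233, 0.10 and 0.11 FPKM in the WT mice. It was at 0.0151 FPKM in KO replicate 7 and listed at 0 in KO replicates 1 and 8, so the genotypes did not overlap at this low level. The steps between low FPKM values gave about 20500000 to 21500000 fragments in the WT and 14900000 to 19300000 in the KO libraries, so every KO library was less deep. The myofiber genes *Acta1*, *Ckm*, *Myl1*, *Pvalb* and *Myh1* were present in all libraries and summed to 32049 to 46097 FPKM in the WT mice and 40107 to 49135 FPKM in KO muscle. *Myh4*, *Tnnt3* and *Atp2a1*, which fast muscle uses heavily, were listed at 0 in every library, so a value of exactly 0 here can be a failed estimate. Across the 12334 genes tested, the difference between KO and WT followed the GC content of the transcript. The 2609 genes under 45% GC had a median log2 fold change of -0.30, and the 2067 genes with at least 56% GC had one of 0.53. The values of each member are given below with its GC content and with its fold change after this trend was subtracted library by library.

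All 10 members were expressed above the minimum of 0.5 FPKM that the test asked for, and each was above 0 in every library. Their mean levels covered a wide range. In WT muscle the order was *Amd1* (487 FPKM), *Odc1* (246), *Oaz1* (201), *Oaz2* (109), *Sms* (73.3), *Smox* (46.1), *Azin1* (16.2), *Sat1* (14.6), *Srm* (2.78) and *Paox* (1.86). The WT libraries of *Odc1* and *Oaz1* overlapped, and so did those of *Azin1* and *Sat1*, so these neighbours did not separate beyond their spread. *Amd1* stood above 99.1% and *Srm* above 44.9% of the tested genes. In KO muscle *Oaz1* (267 FPKM) was above *Odc1* (186 FPKM) in every library, and *Srm* and *Paox* were again the lowest.

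**Figure D1:**
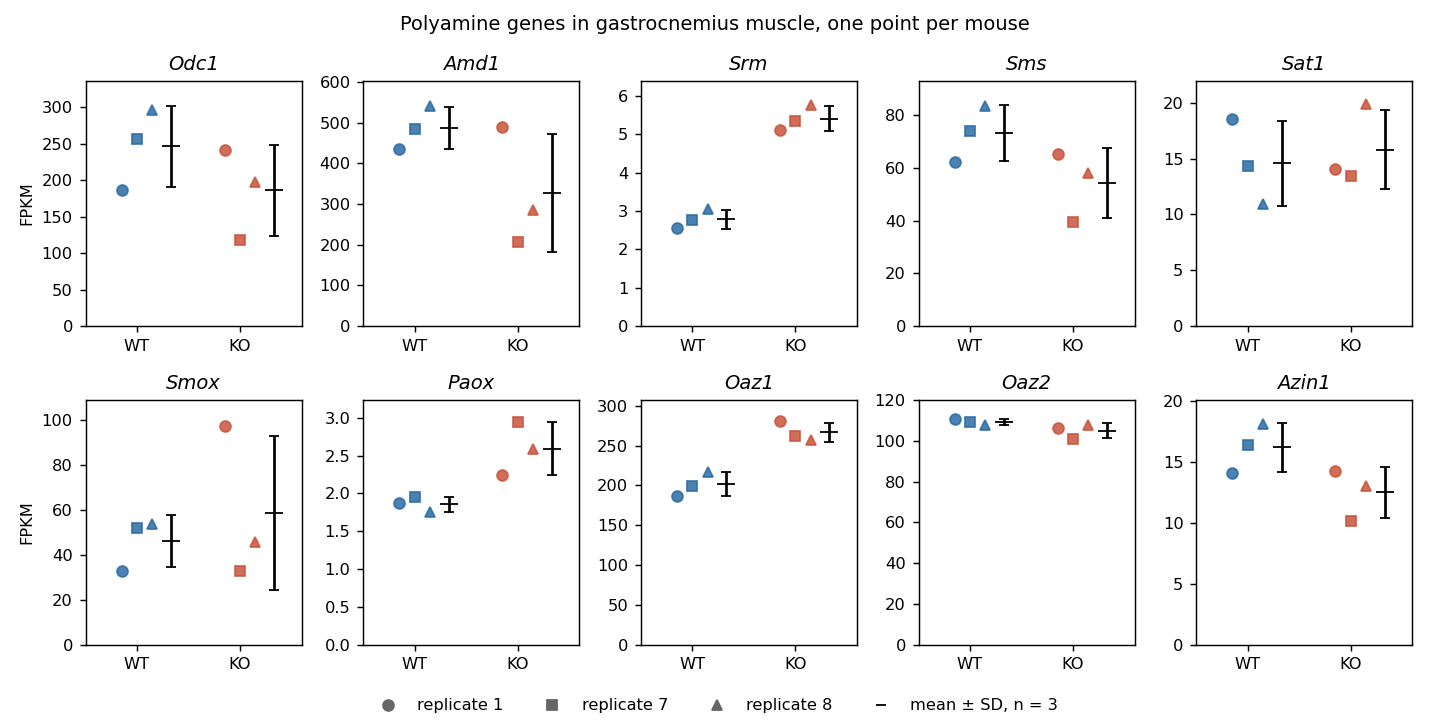
FPKM of the 10 polyamine genes in the GAS muscles, with 1 point per mouse (blue, WT; red, KO; symbols, replicate number), the mean and the SD (n = 3) beside each group, and an axis for each gene that starts at 0. The genotypes do not overlap for *Srm* (2.55 to 3.04 against 5.12 to 5.75), *Paox* (1.75 to 1.95 against 2.24 to 2.94) and *Oaz1* (187 to 217 against 257 to 281), while *Smox* in KO replicate 1 (97.5) stands far above the other libraries.

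Of the 9 members other than *Srm*, 0 passed an adjusted p of 0.05 in limma, against 0.324% of all tested genes. At an unadjusted p under 0.05, 2 were higher in KO muscle (*Oaz1* and *Paox*) and 1 was lower (*Azin1*). Among all tested genes the shares at that level were 15.3% higher and 10.9% lower, so 2 and 1 of 9 are near the background. The 3 KO values lay above the 3 WT values for 2 of the 9, *Paox* and *Oaz1*, and below them for 0. *Srm*, chosen on this contrast, makes 3 members apart in all and is not counted. Among all tested genes, 18.3% had every KO above every WT library and 16.2% had every KO below. The median log2 fold change was 0.034 over the 10 members and -0.057 over the 9 others, beside 0.010 over all tested genes. In these bulk samples, fewer cells of a type and less RNA per cell cannot be told apart.

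The promoters of *Odc1*, *Amd1* and *Sms* are shown because these 3 synthesis genes varied together from mouse to mouse, as given below. They are the bases before the annotated gene start in RefSeq windows of GRCm38.p6, in which 8 of the 10 members were found. Capitals mark the GC box (GGGCGG or CCGCCC), a motif known to bind Sp1, and the E-box (CACGTG), known to bind Myc with Max, each searched on both strands. The windows are chr12:17544623-17544793 on the plus strand for *Odc1*, chr10:40302189-40302438 on the minus strand for *Amd1* and chrX:157492288-157492537 on the minus strand for *Sms*.

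Odc1: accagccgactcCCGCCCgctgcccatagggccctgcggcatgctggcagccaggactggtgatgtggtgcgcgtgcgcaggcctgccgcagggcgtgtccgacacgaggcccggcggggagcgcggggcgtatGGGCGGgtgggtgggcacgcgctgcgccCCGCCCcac
Amd1: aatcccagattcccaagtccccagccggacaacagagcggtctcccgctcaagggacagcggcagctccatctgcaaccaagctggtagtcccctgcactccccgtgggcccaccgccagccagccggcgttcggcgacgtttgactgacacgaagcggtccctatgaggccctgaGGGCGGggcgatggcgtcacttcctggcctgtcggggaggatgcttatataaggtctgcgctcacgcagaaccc
Sms: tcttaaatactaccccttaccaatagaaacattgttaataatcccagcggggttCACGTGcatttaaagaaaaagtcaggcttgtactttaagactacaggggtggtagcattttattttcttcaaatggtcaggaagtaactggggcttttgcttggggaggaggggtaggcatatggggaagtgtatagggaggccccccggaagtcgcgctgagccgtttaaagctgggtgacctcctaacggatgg

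The *Odc1* window, 171 bases long, held 3 GC boxes and was 77.2% GC. *Amd1* had 1 GC box in 250 bases with 64.4% GC. The *Sms* window shown had no GC box, 1 E-box and 47.2% GC. RefSeq lists a second *Sms* window, which lies inside the annotated gene, is not printed and held 4 GC boxes and no E-box. Of 32851 RefSeq windows of 250 bases, 32.7% held a GC box and 6.02% an E-box. A match or its absence in such a window says nothing about binding.

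Ornithine decarboxylase and S-adenosylmethionine decarboxylase are the regulated entry steps of the pathway. *Odc1* (ENSMUSG00000011179, chromosome 12, 49.2% GC) was at 186, 256 and 296 FPKM in the WT mice and at 242, 118 and 198 FPKM in the KO mice. The genotypes overlapped, with KO replicate 7 lowest and WT replicate 8 highest. The means were 246 ± 55.7 in WT and 186 ± 62.6 in KO muscle (SD, n = 3). The log2 difference, KO minus WT, was -0.44 (standard error 0.28, 95% interval -1.1 to 0.22, adjusted p = 0.352) and -0.14 without KO replicate 7. After the GC trend was subtracted it was -0.40.

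*Amd1* (ENSMUSG00000075232, chromosome 10, 42.3% GC) was the most abundant member, at 436, 486 and 540.2 FPKM in the WT mice and 489.9, 207 and 285 FPKM in the KO mice. KO replicate 1 lay within the WT range and the other KO libraries lay below it. KO and WT muscle differed by -0.66 on the log2 scale (standard error 0.29, interval -1.34 to 0.013, adjusted p = 0.196). It moved to -1.0 without KO replicate 1, to -0.38 without KO replicate 7 and to -0.36 after the GC trend was subtracted. Of the 31-base words in the *Amd1* transcripts, 81.9% also occur in its copy *Amd2*, so the division of fragments between them is uncertain. *Amd2* was at 33 to 44.1 FPKM in the WT mice and 17.3 to 40.6 FPKM in KO muscle (log2 difference -0.65, adjusted p = 0.210). The ratio of *Amd1* to *Amd2* stayed between 11.3 and 13.2 in the 6 libraries.

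*Srm* (ENSMUSG00000006442), which makes spermidine from putrescine, lies on chromosome 4 from 148591503 to 148594993 on the plus strand of GRCm38 and is 58.9% GC. It was at 2.55, 2.75 and 3.04 FPKM in the WT mice and at 5.12, 5.34 and 5.75 FPKM in the KO mice. The means were 2.78 ± 0.244 and 5.40 ± 0.322 FPKM (SD, n = 3), a ratio of 1.94. No KO library reached down to the WT range, and the mice of each genotype were close to each other. On the log2 scale the difference was 0.93 (standard error 0.13), and it lay between 0.88 and 0.998 when any single library was left out. It was 0.37 (standard error 0.12) once the GC trend was subtracted, with the genotypes still apart. These levels rest on an estimated 76.3 to 149.7 fragments per library, the fewest of the 10 members. Because *Srm* was chosen for this difference, these values are a description.

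*Sms* (ENSMUSG00000071708, X chromosome, 43.3% GC), which makes spermine from spermidine, was far more abundant than *Srm* and did not share its pattern. It was at 62.3, 74.2 and 83.5 FPKM in the WT mice and 65.3, 39.6 and 58.3 FPKM in the KO mice. The groups overlapped through KO replicate 1. The difference was -0.45 on the log2 scale (standard error 0.20, interval -0.93 to 0.024, adjusted p = 0.207), -0.24 without KO replicate 7 and -0.18 after the GC trend was subtracted. The ratio of *Srm* to *Sms* was 0.0364 to 0.0410 in WT and 0.0784 to 0.135 in KO muscle. That ratio includes the value *Srm* was chosen on.

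The catabolic enzymes differed from each other. *Sat1* (ENSMUSG00000025283, X chromosome, 44.7% GC) encodes the acetyltransferase that marks spermidine and spermine for breakdown or export. It was at 18.5, 14.3 and 10.9 FPKM in the WT mice and 14.1, 13.4 and 19.9 FPKM in the KO mice. The ranges overlapped widely and the log2 fold change was 0.12 (interval -0.41 to 0.65, adjusted p = 0.754). After the GC trend was subtracted it was 0.35 (standard error 0.20, adjusted p = 0.571). Its sign as deposited turned without KO replicate 8 (-0.052) or WT replicate 8 (-0.068).

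*Smox* (ENSMUSG00000027333, chromosome 2, 58.0% GC) encodes spermine oxidase, which returns spermine to spermidine. It was at 32.6, 52.0 and 53.8 FPKM in the WT mice and 97.5, 32.7 and 45.7 FPKM in the KO mice. KO replicate 1 was the highest of all 6, while the other KO libraries lay within the WT range. The log2 difference was 0.23 (standard error 0.39, interval -0.69 to 1.14, adjusted p = 0.740). Without KO replicate 1 it was -0.22, without WT replicate 1 -0.0073, and after the GC trend was subtracted -0.29. The SD of *Smox* within a genotype, 0.64 on the log2 scale, was above that of 93.5% of the tested genes.

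*Paox* (ENSMUSG00000025464, chromosome 7, 51.2% GC) encodes the peroxisomal oxidase that acts on the acetylated polyamines made by *Sat1*. It was at 1.87, 1.95 and 1.75 FPKM in the WT mice and 2.24, 2.94 and 2.58 FPKM in the KO mice. Every KO library was above every WT library, with means of 1.86 ± 0.0989 and 2.59 ± 0.350 FPKM (SD, n = 3), a ratio of 1.39. The log2 difference of 0.45 (standard error 0.16, interval 0.085 to 0.82) did not pass the adjustment (adjusted p = 0.137). It was 0.39 after the GC trend was subtracted (adjusted p = 0.422), again without overlap between the genotypes. *Paox* shares 26.2% of its 31-base words with the pseudogene *Gm19680*, and its level rests on an estimated 158.9 to 270.6 fragments per library.

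The antizymes and their inhibitor set the stability of ornithine decarboxylase. *Oaz1* (ENSMUSG00000035242, chromosome 10, 57% GC) encodes antizyme 1, whose translation depends on a frameshift that polyamines promote. It was at 187, 199.8 and 217 FPKM in the WT mice and 281, 263 and 257 FPKM in the KO mice. The genotypes did not overlap, and the means were 201 ± 15.2 and 267 ± 12.3 FPKM (SD, n = 3), a ratio of 1.32. On the log2 scale KO exceeded WT by 0.41 (standard error 0.10, interval 0.16 to 0.65, adjusted p = 0.0861), the closest to the threshold among the 9 others. After the GC trend was subtracted it was -0.053 (adjusted p = 0.884), and the genotypes overlapped.

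*Oaz2* (ENSMUSG00000040652, chromosome 9, 52.2% GC), which encodes antizyme 2, was at 111, 109 and 108 FPKM in the WT mice and 106, 101 and 108 FPKM in the KO mice. The log2 difference of the means was -0.057 (standard error 0.091, interval -0.27 to 0.16, adjusted p = 0.718). It was -0.19 after the GC trend was subtracted, with every KO value then below every WT value (adjusted p = 0.521). The SD within a genotype was 0.038 on the log2 scale, and only 0.30% of the tested genes varied less between mice of one genotype.

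*Azin1* (ENSMUSG00000037458, chromosome 15, 40.5% GC) encodes antizyme inhibitor 1, which resembles ornithine decarboxylase and binds antizyme in its place. It was at 14.1, 16.4 and 18.1 FPKM in the WT mice and 14.3, 10.2 and 13 FPKM in the KO mice. KO replicate 1 overlapped the lowest WT library. On the log2 scale KO minus WT was -0.38 (standard error 0.16, interval -0.76 to -0.0041, adjusted p = 0.188), -0.24 without KO replicate 7 and -0.029 after the GC trend was subtracted.

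The antizyme transcripts were set against the transcripts of their binding partners by a ratio chosen after the values were seen. The sum of *Oaz1* and *Oaz2* over the sum of *Odc1* and *Azin1* was 1.49, 1.13 and 1.03 in the WT and 1.51, 2.83 and 1.73 in the KO mice. The ranges did not overlap, but WT replicate 1 and KO replicate 1 were close. The ratio was not tested, and it was taken from FPKM without subtracting the GC trend. After that trend was subtracted, the log2 differences were -0.053 for *Oaz1*, -0.19 for *Oaz2*, -0.40 for *Odc1* and -0.029 for *Azin1*. Of their 31-base words, *Odc1* shares 31.3% with any other gene, *Oaz1* 24.0% and *Sms* 18.8%, and the gene sharing most with each is a processed pseudogene, so part of their fragments could have been assigned elsewhere.

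Mice of one genotype differed more in some members than in others. *Smox*, *Amd1* and *Odc1* had SDs within a genotype of 0.64, 0.46 and 0.45 on the log2 scale, beside a median of 0.22 over all tested genes, whereas *Srm* (0.10), *Oaz1* (0.090) and *Oaz2* (0.038) varied little. *Srm* was chosen on its difference between genotypes, and a small spread favours such a choice. KO replicate 7 was the lowest of the 6 libraries for 5 members, *Odc1*, *Amd1*, *Sms*, *Oaz2* and *Azin1*. WT replicate 8 was the highest for 4 of these, *Odc1*, *Amd1*, *Sms* and *Azin1*. The shares of all tested genes lowest or highest in these libraries were not counted, so whether this is particular to the members was not tested.

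**Figure D2:**
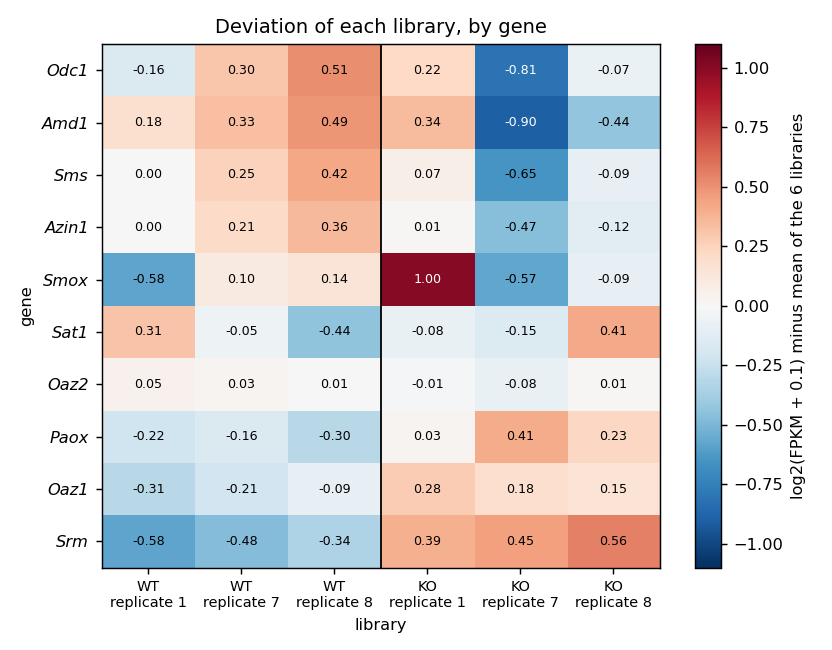
Deviation of each library (columns) from the mean of the 6 libraries for each polyamine gene (rows), in log2(FPKM + 0.1), red above and blue below the mean, with the value in each cell. *Odc1*, *Amd1*, *Sms* and *Azin1* are low in KO replicate 7 (-0.81, -0.90, -0.65 and -0.47) and high in WT replicate 8 (0.51, 0.49, 0.42 and 0.36), and *Srm* is below the mean in the WT and above it in the KO libraries.

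After the genotype means were removed, *Odc1* followed *Azin1* (Pearson r = 0.997), *Sms* (0.995), *Smox* (0.91) and *Amd1* (0.88) over the 6 libraries. *Paox* ran the other way, with r of -0.84 against *Odc1* and -0.95 against *Amd1*. *Srm* was not part of this pattern, with r of 0.37 against *Odc1* and -0.077 against *Amd1*. These correlations describe 6 points that share each library's depth, tissue makeup and base composition. KO replicate 7 had the lowest value of *Odc1*, *Amd1*, *Sms* and *Azin1* alike. Over all 6 libraries with the genotypes left in, the genes most like *Srm* were *Fam100a* (r = 0.999, 57.4% GC), *Klhl33* (0.994, 52.1% GC) and *Edf1* (0.993, 58.4% GC). They were picked by r from all tested genes, on a pattern that includes the genotype difference *Srm* was chosen on. A high r is therefore built into their choice.

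KO replicate 7 also stood apart in markers of other cells. *Adipoq*, an adipocyte hormone, was at 40.4 FPKM there and at 2.39 to 11.4 FPKM in the other libraries. The sum of 5 adipocyte markers was 225 to 426 FPKM in the WT mice and 274 to 529 FPKM in KO muscle, highest in KO replicate 7. *Fabp4* made up most of that sum, and its log2 difference was 0.26, beside 1.50 to 2.79 for the others. At an unadjusted p under 0.05 in limma, 3 of the 5 were higher in KO muscle, beside 15.3% of all tested genes, and 0 passed the adjustment. *Plin1* and *Cidec* were higher in every KO than in every WT library, not in KO replicate 7 alone, beside 18.3% of all tested genes. Schwann cell markers summed to 12.5 to 62.2 FPKM in the WT mice and 14.2 to 87.2 FPKM in KO muscle, and leukocyte markers to 17.9 to 33.5 and 23.5 to 50.9 FPKM, both highest in KO replicate 7. Most of the leukocyte sum was *Lyz2*. None of the 4 tested Schwann cell or the 7 tested leukocyte markers had an unadjusted p under 0.05. No marker of these 3 lists was at 0 in all libraries. *Myh1*, the myosin of one fast fiber type, was at 918 FPKM in KO replicate 7, 881 FPKM in WT replicate 1 and 203 FPKM in WT replicate 8. The part of tissue makeup in the levels of *Odc1*, *Amd1*, *Sms* and *Azin1* was not tested.

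The other marker lists were compared in the same way. Satellite cell markers summed to 2.39 to 4.76 FPKM in the WT mice and 4.94 to 5.43 FPKM in KO muscle. Most of that sum was *Cdh15*, the 1 tested marker, with means of 2.63 and 4.14 FPKM and a log2 difference of 0.71 that was 0.10 after the GC trend was subtracted. *Cdh15* was higher at an unadjusted p under 0.05 in limma, a level at which 15.3% of all tested genes were higher and 10.9% lower. Of the markers under the minimum, *Pax7* had means of 0.421 and 0.418 FPKM, *Calcr* of 0.192 and 0.0955 FPKM and *Myf5* of 0.290 and 0.528 FPKM. Erythroid markers summed to 242 to 314 FPKM in the WT mice and 266 to 547 FPKM in KO muscle, with 2 of 5 higher at that level. Of the myofiber markers, *Acta1* and *Ckm* were higher at that level among 5 tested. Endothelial markers had 1 higher and 1 lower of 6 at that level, with sums of 43.4 to 48.9 and 42.1 to 54.9 FPKM. Fibroblast markers had 1 higher of 6 at that level, with sums, mostly of *Dcn*, of 379 to 546 and 363 to 473 FPKM. None of these markers passed an adjusted p of 0.05 in limma, and their part in the level of *Srm* was not tested.

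The polyamine genes spanned 40.5% to 58.9% GC. Their fold changes tended to rise with GC content, as those of the whole table did, but most members departed from the trend in size. Spearman's rho between GC content and log2 fold change was 0.70 over the 9 members other than *Srm* and 0.70 over all tested genes of known GC content, and 0.78 with *Srm*, whose fold change was the value it was chosen on. The members under 45% GC were *Azin1*, *Amd1*, *Sms* and *Sat1*, and all but *Sat1* were lower in KO muscle in mean FPKM. Those above 56% GC were *Oaz1*, *Smox* and the selected *Srm*, and all had higher means. Against the middle range of tested genes of similar GC content, *Srm*, *Paox* and *Sat1* lay above and *Amd1*, *Odc1* and *Sms* below. *Oaz1* and *Azin1* lay inside that range, and *Smox* and *Oaz2* near its lower edge. After the trend was subtracted, rho over all genes was -0.014 and the median log2 fold change was -0.11 over the members and -0.18 over the 9 others. *Srm* and *Paox* then kept their direction and stayed apart between the genotypes, while *Oaz1* and *Smox* changed sign.

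**Figure D3:**
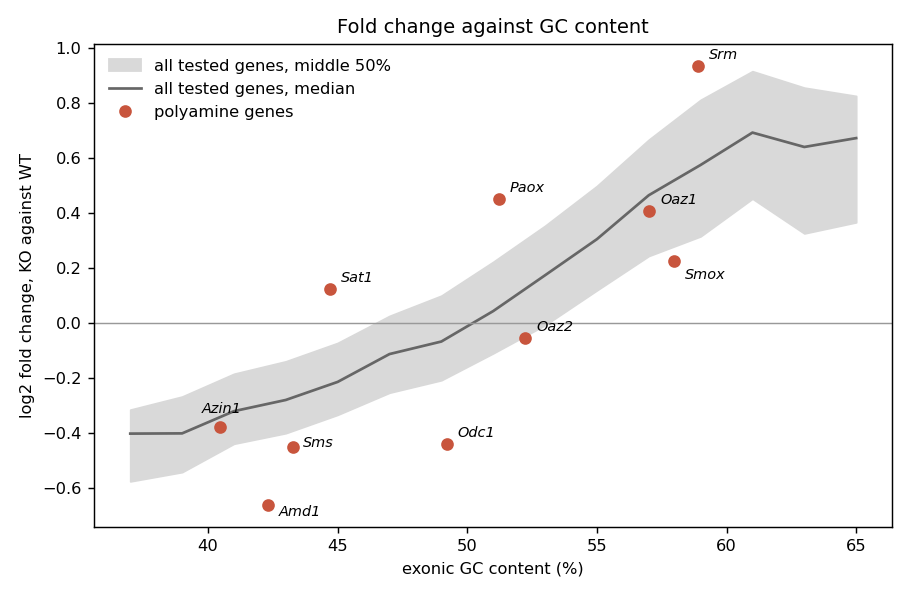
Log2 fold change, KO against WT, against the GC content of the annotated exons, with the median (line) and the middle 50% (grey band) of all tested genes in bins of GC content, and the 10 polyamine genes as red points. *Oaz1* (0.41) and *Azin1* (-0.38) lie inside the band, *Srm* (0.93), *Paox* (0.45) and *Sat1* (0.12) above it, *Amd1* (-0.66), *Odc1* (-0.44) and *Sms* (-0.45) below it, and *Smox* and *Oaz2* near its lower edge.

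**Figure D4:**
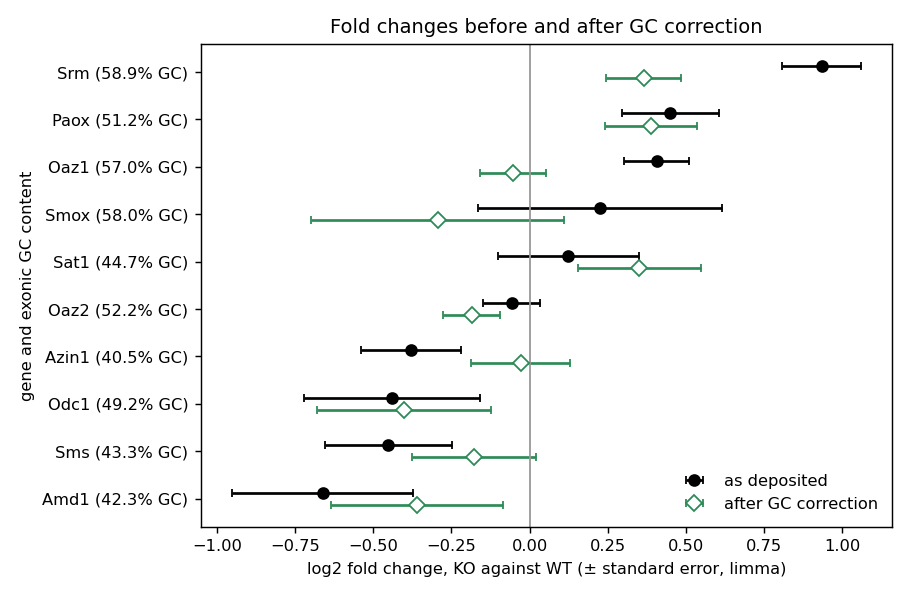
Log2 fold change of each polyamine gene, KO against WT, on log2(FPKM + 0.1) as deposited (black circles) and after the GC trend was subtracted from each library (green diamonds), with the standard error from limma as bars. *Srm* moves from 0.93 to 0.37, *Oaz1* from 0.41 to -0.053, and *Paox* only from 0.45 to 0.39.

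*Srm* lies 3.80 megabases from the targeted gene on the same chromosome. The 114 tested genes within 5 megabases of *Kcnab2* had a median log2 fold change of 0.28, and 85 of them (74.6%) had a positive value, beside 51.0% of all tested genes. They had a median of 54.4% GC, beside 50.1% over all tested genes, and their median log2 fold change was -0.0059 after the GC trend was subtracted. By size, the fold change of *Srm* was the 9th highest of these genes as deposited and the 16th highest after the subtraction. Both ranks rest on the difference *Srm* was chosen on, so they are a description. Any part of the engineered locus or its surroundings in the level of *Srm* was not tested.

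**Figure D5:**
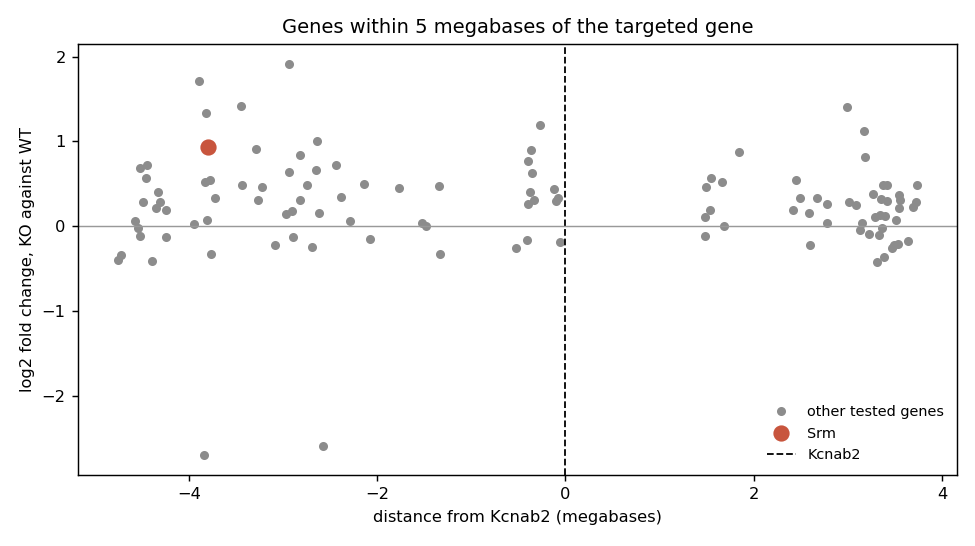
Log2 fold change, KO against WT, of the 114 tested genes within 5 megabases of *Kcnab2* against their distance from it in megabases, with *Srm* in red and *Kcnab2* as a dashed line. *Srm*, 3.80 megabases away, is at 0.93, the difference it was chosen on, and the 114 genes, *Srm* included, have a median of 0.28.

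The rest of the pathway was read from 43 genes in 7 lists, of which 30 passed the minimum level. In limma, 0 of the 30 passed an adjusted p of 0.05, 5 were higher and 2 lower at an unadjusted p under 0.05, and 7 had every KO above and 2 every KO below every WT library. The median log2 fold change of the 30 was 0.064, and -0.0038 after the GC trend was subtracted. Set beside the shares of all tested genes given above, these counts do not stand out.

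Ornithine reaches the pathway from arginine. Of 4 genes around arginine and ornithine, *Arg1*, *Arg2* and *Agmat* were under the minimum, with *Agmat* listed at 0 throughout. *Oat*, ornithine aminotransferase, was at 81.4 to 120.2 FPKM with a log2 difference of 0.018 (adjusted p = 0.955 in limma). Among 6 further copies and minor relatives of the members 3 were tested, with none at an unadjusted p under 0.05, and *Amd2* was the most abundant.

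Methionine supply and salvage provide the substrate of *Amd1* and recover a by-product of polyamine synthesis, and 7 of the 8 genes listed were tested. *Mri1*, an isomerase of methionine salvage, was at 2.0, 2.18 and 2.60 FPKM in the WT mice and 3.20, 3.80 and 3.87 FPKM in the KO mice. It was higher in every KO library, with a log2 difference of 0.66 (standard error 0.16, adjusted p = 0.0777) and 0.23 after the GC trend was subtracted. *Mat2b*, a regulatory subunit of methionine adenosyltransferase, was at 34.4 to 40.7 FPKM in the WT mice and 30.4 to 32.2 FPKM in KO muscle (log2 difference -0.28, adjusted p = 0.158). That difference was -0.11 after the subtraction.

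Of 9 genes of polyamine and amino acid transport, 8 were tested. *Atp13a3*, an ATPase of polyamine uptake, was at 7.63, 7.82 and 7.47 FPKM in the WT mice and 4.84, 4.08 and 5.14 FPKM in the KO mice. Every KO library was lower, with a log2 difference of -0.70 (standard error 0.12, adjusted p = 0.0667), the closest to the threshold of the 30 genes, and -0.37 after the GC trend was subtracted. Its relative *Atp13a2*, which exports polyamines from lysosomes, was at 1.61, 2.12 and 2.45 FPKM in the WT mice and 4.18, 4.09 and 2.90 FPKM in the KO mice. It had a log2 difference of 0.82 (adjusted p = 0.0864), which became 0.14 after the subtraction. *Slc3a2*, the heavy chain of several amino acid transporters, was at 5.95 to 7.42 FPKM in the WT mice and 7.71 to 9.16 FPKM in KO muscle (log2 difference 0.34, adjusted p = 0.167, and 0.033 after the subtraction).

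The uses of polyamines gave no call. Of the 3 tested genes of eIF5A hypusination, 0 had an unadjusted p under 0.05. *Eif5a* itself was at 161 to 209 FPKM in the WT mice and 189.6 to 234 FPKM in KO muscle. Its log2 fold change was 0.17 (adjusted p = 0.459 in limma), and -0.068 after the GC trend was subtracted. Of 4 strong inward rectifier channels, 2 were tested. *Kcnj12*, with the higher mean over the 6 libraries, was at 7.75 to 16.4 FPKM in the WT mice and 13.1 to 15.2 FPKM in KO muscle. Its log2 fold change was 0.33 (adjusted p = 0.432 in limma), and -0.14 after the GC trend was subtracted. *Kcnj2* went the other way, at 5.04 to 15.7 FPKM in the WT mice and 5.94 to 9.07 FPKM in KO muscle. Its log2 fold change was -0.57 (adjusted p = 0.412 in limma), and -0.23 after the subtraction.

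The Myc network, a known regulator of polyamine synthesis genes, had 6 of 8 genes tested. *Mxd4* and *Mnt*, which pair with Max and oppose Myc, had log2 fold changes of 0.51 (adjusted p = 0.0977) and 0.69 (adjusted p = 0.104) with every KO above every WT library, and 0.30 and 0.084 after the GC trend was subtracted.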

How the data were processed

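RNA of whole GAS muscles from 3 WT and 3 Kvβ2 KO mice was sequenced with 1 library per mouse. The authors mapped paired-end reads to GRCm38 with TopHat and deposited the FPKM of each gene from Cufflinks. The versions are not given in the sources used here. Coordinates, exonic GC content and shared sequence came from GENCODE vM21, in which 32935 gene identifiers were found. GC content was known for 97.2% of the tested genes.

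Differences were tested on log2(FPKM + 0.1) in limma (version 3.58.1, R version 4.3.3) with a variance trend. The test took the 12334 genes whose mean reached 0.5 FPKM and used Benjamini-Hochberg adjusted p-values with a threshold of 0.05. Fold changes on this scale understate those of low genes. The script was tested on simulated data. For the GC trend, a loess curve of span 0.3 of each library's deviation on GC content was subtracted. Depth was estimated from low values of transcripts of 1500 to 6000 bases, of which 89.8% to 95.1% per library lay within 0.15 of a whole fragment. Any 2 libraries had at most 1 identical value over 14983 genes with no 0.

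The members, the pathway lists and the marker lists were chosen with earlier results of these data known, and 1 gene of a pathway list is not reported here. The named genes are all members, *Kcnab2*, the tested genes of each pathway list with an unadjusted p under 0.05 and, where fewer than 2 had one, the gene with the highest mean FPKM, and the 3 genes most correlated with *Srm*. The marker genes, *Arg1*, *Arg2*, *Agmat* and *Kcnj2* were named after their values were seen. Alternatives covered the pseudocount, the filter, scaling, the variance model, array weights, a replicate block, GC content, length, shared symbols and the removal of each library.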

Additional observations from a re-analysis of the deposited data

How the results depend on the processing

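Among 20 alternatives per gene, *Odc1*, *Amd1*, *Sms*, *Oaz2*, *Azin1*, *Paox* and *Srm* kept their direction, and *Srm* ranged from 0.37 to 1.00 in log2 fold change (0.76 with a pseudocount of 1, 0.37 with the GC correction, 0.77 with a length correction). *Oaz1* reversed to -0.053 and *Smox* to -0.29 with the GC correction, with or without the replicate block. Leaving out 1 library at a time gave -0.22 to 0.57 for *Smox* (-0.22 without KO replicate 1, -0.0073 without WT replicate 1) and -0.068 to 0.31 for *Sat1* (-0.068 without WT replicate 8, -0.052 without KO replicate 8).

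With array weights, limma called 4 of the 9 members (*Amd1*, *Paox*, *Oaz1* and *Azin1*) and 9 pathway genes, but also 3147 of all tested genes (25.5%). None of the 9 members other than *Srm*, and no pathway gene, was called in the other alternatives. At an unadjusted p under 0.05 the count of higher members (2) became 1 with the GC or length correction, 0 with the GC correction and replicate block, and 1 to 2 without 1 library. The count of lower members (1) became 0 without the variance trend, with the replicate block, with the GC correction or with both, 2 without genes listed at 0, 3 with median-ratio scaling or the length correction, 4 with array weights, and 0 to 3 without 1 library. Over all tested genes the share lower at that level moved too, from 10.9% to 12.7% with median-ratio scaling, 16.6% with the length correction, 18.8% with array weights and 5.40% with the GC correction, and the share higher from 15.3% to 5.33% with the GC correction. The count of members without overlap (3) became 5 with median-ratio scaling, 6 with the length correction and 3 to 6 without 1 library, *Srm* included. Over all tested genes the share without overlap was 34.5%, and 35.1%, 36.9% and 40.7% to 47.4% under these settings.

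The 40 calls over all genes became 11 with a pseudocount of 1, 20 without the filter, 1 without genes listed at 0, 19 without the variance trend or with the length correction, 14 with the GC correction, 12 with that and the replicate block, and 11 to 38 without 1 library. Samples of the same number did not deviate together over all tested genes (correlations of -0.025, -0.080 and 0.034). The labels do not say what the numbers stand for. Such correlations cannot exclude a link that is weak or confined to few genes. The replicate block gave 13 calls. With 3 mice a group, the intervals of *Odc1*, *Amd1* and *Smox* include differences of more than 1 on the log2 scale.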
